A study of Mus musculus with 10 samples.

Results

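The 9 genes described here are spermatid genes, most of them for proteins of the sperm head: the cylicins Cylc1 and Cylc2, calicin (Ccin), the actin-capping subunit Capza3, the actin-related proteins Actl7a, Actl7b, Actrt1 and Actrt2, and Spem1. They were chosen by name, and each was measured by the probe whose RefSeq accession belongs to it. Each gene had 1 such probe, so the 9 genes are 9 of the 16792 genes tested, and no other probe of theirs could be set beside it. All 9 probes were well above background on all 10 arrays, so none entered the test through a single group.

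The samples were testes of male C57BL/6N mice aged 6 weeks, each hybridised to its own 1-colour Agilent array. The 5 R animals were offspring of dams held from 6.5 days post coitum at 50% of the mean intake of the control dams, and they were nursed by control dams that were not their mothers. The 5 C animals were offspring of dams with free access to chow and stayed with those dams, so prenatal diet and fostering cannot be told apart. All 10 animals ate chow freely after weaning. The labels name no litters, so litter mates may stand within a group. The p-values measure the spread between these animals.

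The perinuclear theca is a rigid protein shell between the nucleus and the acrosome of the sperm head, and its hind part, the calyx, covers the rear of the nucleus. Round and elongating spermatids build it while the head takes its shape, with actin and actin-related proteins in the layer beneath the acrosome. Cylicins and calicin are basic structural proteins of this shell, and mice without such proteins make sperm with misshapen heads or loosened acrosomes. Spem1 has a different role: it acts in late spermatids, where its loss leaves residual cytoplasm and sperm heads bent back on the neck.

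The arrays lay on 2 slides scanned on separate days: slide 1 held 2 C and 4 R arrays and slide 2 held 3 C and 1 R. Between 56.6% and 67.4% of an array's spots were well above background, and 0 were saturated. The unit below, called the log2 signal, is the processed spot intensity on the log2 scale, counted from the 75th percentile of its own array. It allows a gene to be compared between arrays but not levels between genes. Groups were compared with limma across all probes, and a call is a Benjamini-Hochberg adjusted p under 0.05. Of 16792 genes limma called 5982, 2519 higher and 3463 lower in R, and of 33851 probes 38.6%. Counted from each array's median instead, the median change of all genes moved from −0.03 to −0.24, and 863 genes were called higher and 6180 lower. In its averages the authors' deposited table counts R replicate 1 with the controls and C replicate 5 with the tested animals, unlike the sample labels used here. Under that grouping 0 probes were called by limma, against 2567 with an unadjusted p under 0.05, so every call below rests on the labels. All 9 genes kept the sign of their change under it. None of the 9 probes stands in that table. Array C replicate 2 had the lowest 75th percentile, at 804 against 840 to 1019 elsewhere.

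The changes in these 9 genes were small apart from that of Cylc2. Cylc2 was 1.76-fold higher and Actl7a 1.16-fold higher in R. The other 7 genes did not pass the test. Their log2 changes ran from −0.19 for Actrt2 to 0.28 for Ccin. The 2 genes called higher were 2 of 9, beside a background in which 15% of all tested genes were called higher and 35.6% in either direction. None of the 9 was called lower by limma, where 20.6% of all genes were, although Actl7b, Actrt2 and Spem1 had an unadjusted p under 0.05. The median change of the 9 was 0.06 and that of all genes −0.03. The median absolute change was 0.18 for the 9 and 0.24 for all genes, and the median residual SD was 0.13 against 0.17. Other settings called more of the 9: 5 with normexp, 5 with a trended variance, 5 with array weights and 5 counted from the array median (1 higher and 4 lower). The share of all genes called was then 37.5%, 38.7%, 40.3% and 41.9%.

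**Figure D1:**
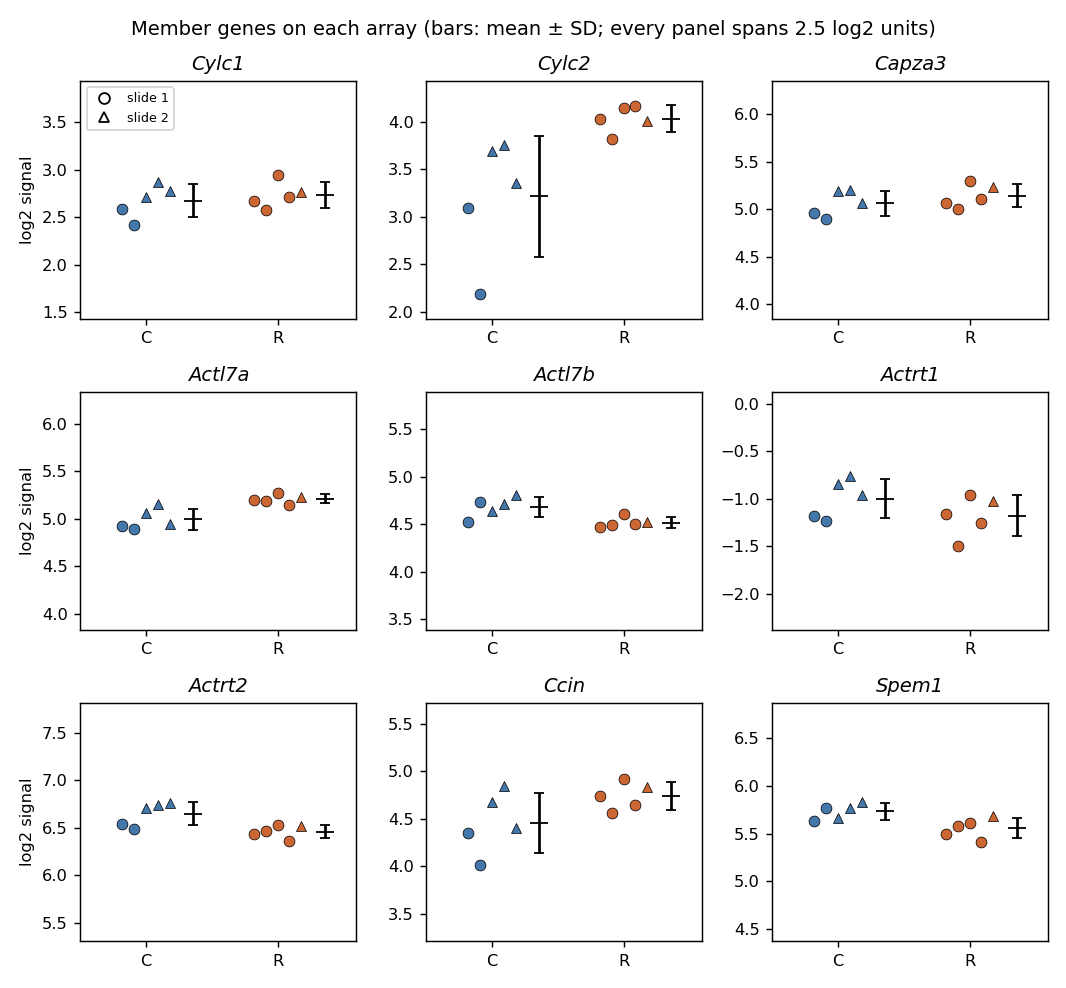
Log2 signal (vertical axis) of the 9 genes on each array of the C group (blue) and the R group (orange), with circles for slide 1 and triangles for slide 2. Bars give mean ± SD (n = 5), and every panel spans the same range on the log2 scale. For Cylc2 the 5 R arrays (3.82 to 4.17) lie above the 5 C arrays (2.19 to 3.76), while the groups overlap for the other genes.

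The cylicins are lysine-rich proteins of the calyx, and loss of Cylc2 makes male mice infertile. The Cylc2 log2 signals of the C arrays were 3.09, 2.19, 3.69, 3.76 and 3.36 in replicates 1 to 5. Those of the R arrays were 4.03, 3.82, 4.15, 4.17 and 4.01. The lowest R array lay above the highest C array, and the C group was the more scattered, with C replicate 2 lowest. The means were 3.22 ± 0.63 in C and 4.03 ± 0.14 in R (SD, n = 5), a log2 change of 0.82 ± 0.26 (SE). The fold was 1.76 (95% interval 1.18 to 2.64, limma adjusted p = 0.0327), higher in 5 of 5 R arrays. Cylc2 was also the member past the study's own criterion, which adds a fold above 1.5 or under 0.66. By that criterion 9.92% of all genes passed (4.25% of all genes as higher in R), and 29.1% of genes had groups that did not overlap.

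The size of the Cylc2 change depended on the slide, on C replicate 2 and on the weighting of the arrays. Within slide 1, where 39.6% of all genes were called, it was 1.40 on the log2 scale (adjusted p = 0.0157). Slide 2, with its single R array, gave 0.41 (adjusted p = 0.266), and a fit with slide as a block gave 1.04 (adjusted p = 0.00832). Without C replicate 2 it was 0.56 with an adjusted p of 0.0121, below the study's fold. Without C replicate 1 or without R replicate 1, 3, 4 or 5 the adjusted p lay between 0.0590 and 0.0688 and the call was lost, as it was with no filter on dim probes (0.0669). Array weights lowered the change to 0.47, also below the study's fold (adjusted p = 0.0171), and the grouping of the authors' deposited table gave 0.55 by limma (adjusted p = 0.461). Counted from the array median, Cylc2 was still called (0.60, adjusted p = 0.0394).

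Cylc1, the X-linked cylicin, did not follow Cylc2. The log2 signals of Cylc1 were 2.59, 2.42, 2.72, 2.87 and 2.78 on the C arrays and 2.67, 2.58, 2.95, 2.72 and 2.77 on the R arrays. The groups overlapped through almost their whole range. Its change was 0.06 with a 95% interval of −0.17 to 0.28 (adjusted p = 0.664), and its sign turned in 5 of 26 alternatives, among them the array median as reference (−0.16) and slide 2 alone (−0.02).

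Actl7a and Actl7b are testis-specific actin-related proteins whose genes are neighbours on chromosome 4 and are read in opposite directions away from each other. Actl7a holds the acrosome to the nucleus, and Actl7b is needed for spermatids to complete their shaping. The Actl7a log2 signals were 4.92, 4.89, 5.06, 5.15 and 4.94 on the C arrays and 5.20, 5.19, 5.27, 5.14 and 5.23 on the R arrays. Every R array was above the C mean, and 4 of 5 were above the highest C array. The means were 4.99 ± 0.11 in C and 5.21 ± 0.05 in R (SD, n = 5), a fold of 1.16 (95% interval 1.05 to 1.29, limma adjusted p = 0.0314). The change was 0.30 within slide 1 (adjusted p = 0.0373), 0.18 within slide 2 and 0.25 with slide as a block (adjusted p = 0.0128). Slide 1 alone called 39.6% of all genes and the block 51.6%. Of 26 alternatives 13 called Actl7a. The call was lost without C replicate 1 or 5 or without R replicate 1, 2, 3 or 5 (adjusted p between 0.0524 and 0.0702), with no filter on dim probes (0.0883) and with array weights (0.14, adjusted p = 0.0539). Counted from the array median the change was −0.0017 (adjusted p = 0.989), so whether Actl7a changed at all depended on the reference.

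Actl7b went the other way. Its log2 signals were 4.52, 4.73, 4.64, 4.71 and 4.81 on the C arrays and 4.47, 4.49, 4.61, 4.50 and 4.52 on the R arrays. Of the 5 R arrays 4 lay below the lowest C array, and R replicate 3 lay inside the C range. The difference of the means was −0.17 ± 0.07 (SE), with a 95% interval of −0.32 to −0.01 and an adjusted p of 0.0765 by limma. It was called in 5 of 26 alternatives. These were the fits without C replicate 1 (adjusted p = 0.0378) and counted from the array median (−0.38, adjusted p = 0.0170). The others were normexp (0.0491), a trended variance (0.0415) and array weights (0.0277). With slide as a block the change was −0.14 and not called (adjusted p = 0.118). It was −0.11 within slide 1, −0.20 within slide 2 and −0.03 with the grouping of the authors' deposited table (adjusted p = 0.861).

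A difference between related genes within an array does not depend on the constant by which that array is scaled. It was therefore taken for the 3 pairs of related genes, a comparison chosen after the values were seen. The size of such a difference compares 2 probes and has no reading of its own, so only its shift between the groups was taken. Actl7a minus Actl7b averaged 0.31 ± 0.15 on the C arrays and 0.69 ± 0.04 on the R arrays (SD, n = 5). The C arrays ran from 0.13 to 0.44 and the R arrays from 0.65 to 0.73, with a gap between the groups. Of single genes 29.1% had groups that did not overlap, and the share among all pairs of genes was not counted. The shift of 0.38 had an exact 2-sided permutation p of 0.00794, the smallest that 5 against 5 arrays can give (adjusted over the 3 pairs, p = 0.0119). It was 0.40 within slide 1 and 0.38 within slide 2. With any 1 array omitted it stayed between 0.33 and 0.41. Permuted within slides the exact p was 0.0167, and within slide 1 alone 0.0667, each the smallest possible, for this pair and the cylicins. For Cylc2 minus Cylc1 the shift was 0.76, from 0.54 ± 0.48 to 1.30 ± 0.10 (SD, n = 5), with the same exact permutation p of 0.00794. Here the slides differed in size, at 1.18 within slide 1 and 0.43 within slide 2, and without C replicate 2 the shift was 0.57. Actrt2 minus Actrt1 shifted by −0.006 (exact permutation p = 0.960). With the grouping of the authors' deposited table the 3 shifts were 0.14, 0.45 and 0.04 (exact permutation p = 0.421, 0.190 and 0.690).

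**Figure D2:**
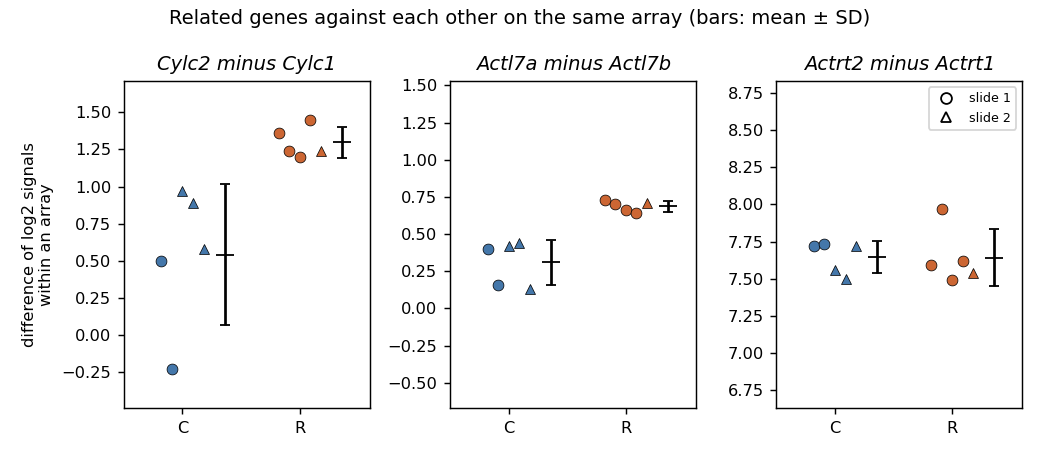
Difference between the log2 signals of related genes on the same array (vertical axis) for the C group (blue) and the R group (orange), with circles for slide 1, triangles for slide 2 and bars for mean ± SD (n = 5). The R arrays lie above all C arrays for Cylc2 minus Cylc1 (1.20 to 1.45 against −0.24 to 0.97) and for Actl7a minus Actl7b (0.65 to 0.73 against 0.13 to 0.44), and the groups overlap for Actrt2 minus Actrt1.

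Actrt1 and Actrt2 are actin-related proteins of the theca, with Actrt1 on chromosome X and Actrt2 on chromosome 4. The Actrt2 log2 signals were 6.54, 6.49, 6.71, 6.74 and 6.76 on the C arrays and 6.43, 6.47, 6.53, 6.36 and 6.52 on the R arrays. Of the 5 R arrays 3 lay below the lowest C array. The C arrays of slide 1 lay at 6.54 and 6.49 and those of slide 2 at 6.71 to 6.76, so the C spread followed the slide. R minus C came to −0.19 (95% interval −0.35 to −0.02, adjusted p = 0.0662). It was −0.07 within slide 1, −0.22 within slide 2 and −0.12 with slide as a block (adjusted p = 0.118). It was called in 7 of 26 alternatives. These were normexp (adjusted p = 0.0318), a trended variance (0.0337), array weights (−0.26, 0.00361), the 75th percentile over probes (0.0396), the array median as reference (−0.40, 0.00553), and the fits without C replicate 2 (−0.23, 0.0238) or without it and R replicate 5 (−0.24, 0.0328).

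The Actrt1 probe lay below the 75th percentile on every array. Its log2 signals were −1.18, −1.24, −0.85, −0.76 and −0.96 on the C arrays and −1.16, −1.50, −0.96, −1.26 and −1.02 on the R arrays. The groups overlapped, with R replicate 2 lowest. Its change was −0.18 with a 95% interval of −0.46 to 0.10 (adjusted p = 0.267), and it was −0.01 within slide 1 and −0.16 within slide 2. It was called in 2 of 26 alternatives: with array weights, at −0.30 (adjusted p = 0.0348), and counted from the array median, at −0.40 (adjusted p = 0.0232). With slide as a block it was −0.07 and not called (adjusted p = 0.629).

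Calicin, the kelch-repeat protein of the calyx encoded by Ccin, is required for normal sperm head shape. Its log2 signals were 4.35, 4.01, 4.68, 4.84 and 4.40 on the C arrays and 4.74, 4.56, 4.92, 4.64 and 4.83 on the R arrays. Every R array was above the C mean of 4.46, but C replicates 3 and 4, both of slide 2, lay within the R range. The log2 change was 0.28 ± 0.15 (SE, 95% interval −0.04 to 0.61, adjusted p = 0.142). A fit with slide as a block gave 0.41 and a call (adjusted p = 0.0274), as did the fit within slide 1 (0.53, adjusted p = 0.0348) and that without C replicate 4 (0.38, adjusted p = 0.0481). The block called 51.6% of all genes. Counted from the array median the change of Ccin was 0.07.

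Capza3 is the spermatid form of the capping protein alpha subunit, which closes the growing ends of actin filaments, and a point mutation in it gives male mice abnormal sperm heads. Its log2 signals were 4.96, 4.90, 5.19, 5.20 and 5.07 on the C arrays and 5.07, 5.00, 5.30, 5.11 and 5.23 on the R arrays. The groups overlapped, and the change of 0.08 had an interval of −0.11 to 0.27 (adjusted p = 0.461). It turned to −0.13 with the array median as reference. Capzb, the beta subunit shared by all capping proteins, had a change of 0.02 (adjusted p = 0.805).

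Spem1 was lower in the R arrays without passing the test. Its log2 signals were 5.63, 5.77, 5.66, 5.77 and 5.83 on the C arrays and 5.50, 5.58, 5.61, 5.41 and 5.68 on the R arrays. Of the 5 R arrays 4 lay below the lowest C array, and R replicate 5 lay inside the C range. The log2 change was −0.18 (95% interval −0.33 to −0.02, adjusted p = 0.0743), at −0.17 within slide 1 and −0.07 within slide 2. It was called in 4 of 26 alternatives. These were the array median as reference (−0.39, adjusted p = 0.0149), normexp (−0.21, 0.0333), a trended variance (0.0393) and array weights (0.0412). With slide as a block it was −0.14 and not called (adjusted p = 0.131).

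**Figure D3:**
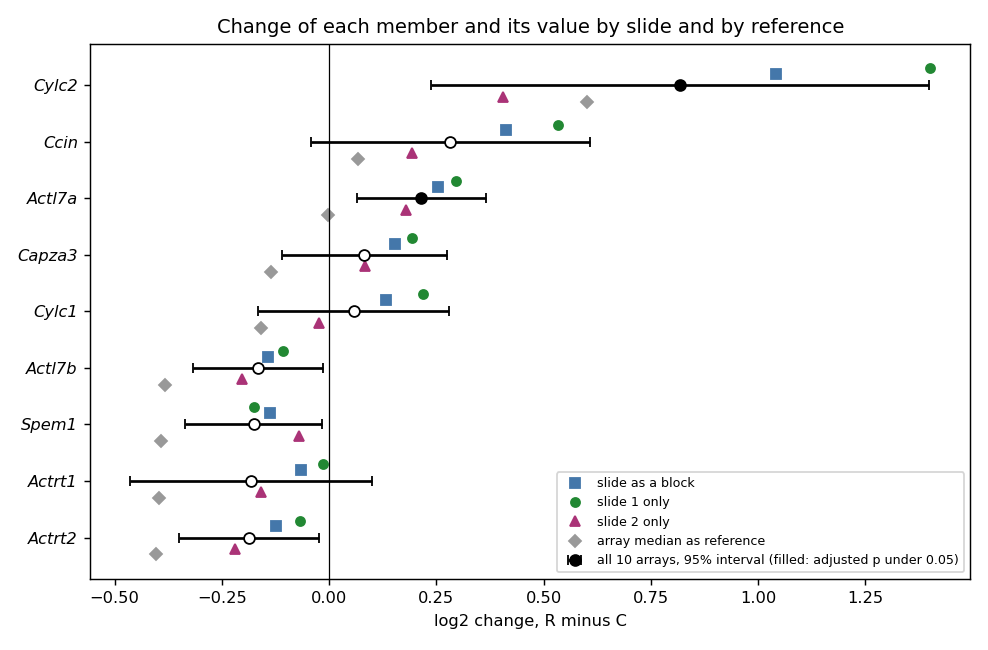
Log2 change R minus C (horizontal axis) of each gene over all 10 arrays with its 95% interval (circles on bars, filled where the adjusted p is under 0.05). Coloured symbols give the same change with the slide as a block, within each slide and with the array median as reference. The array median as reference moves every gene to the left, Actl7a to −0.0017, and Cylc2 is the gene with the widest span between slides, 0.41 to 1.40.

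After the group means were taken off, 7 of the 9 genes varied together from array to array. Among Ccin, Cylc2, Actl7a, Capza3, Cylc1, Actrt1 and Actrt2 Pearson's r over the 10 arrays ran from 0.71 to 0.95, with a median of 0.80 over 21 pairs. Actl7b and Spem1 stood apart from these 7, with r from −0.13 to 0.56 (median 0.27), and had r = 0.69 with each other. The arrays share their slide and scaling, and these values are a description of 10 arrays grouped after the values were seen. With the slide taken off as well the medians were 0.68 and −0.07, and without C replicate 2 they were 0.75 and 0.41. Many other genes had a like pattern: 1269 genes had an r above 0.9 with Cylc2 and 867 with Ccin, but 7 with Spem1. The nearest to Cylc2 were Clec2m and Ell3 (r = 0.992 and 0.992), to Ccin Dda1 and Iqce (0.995 and 0.993), and to Capza3 1700074P13Rik and Btbd16 (0.989 and 0.980). Nearest to Actl7a were Kansl1 and Padi6 (0.955 and 0.951), and to Actl7b Adam34l and Gstt4 (0.972 and 0.968). For Cylc1 they were Dcaf17 and Zfp558 (0.976 and 0.975) and for Actrt1 Nt5c2 and Ndfip2 (0.970 and 0.969). For Actrt2 they were Pifo and Gm15412 (0.971 and 0.959) and for Spem1 Syce2 and Fkbp1a (0.934 and 0.930).

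**Figure D4:**
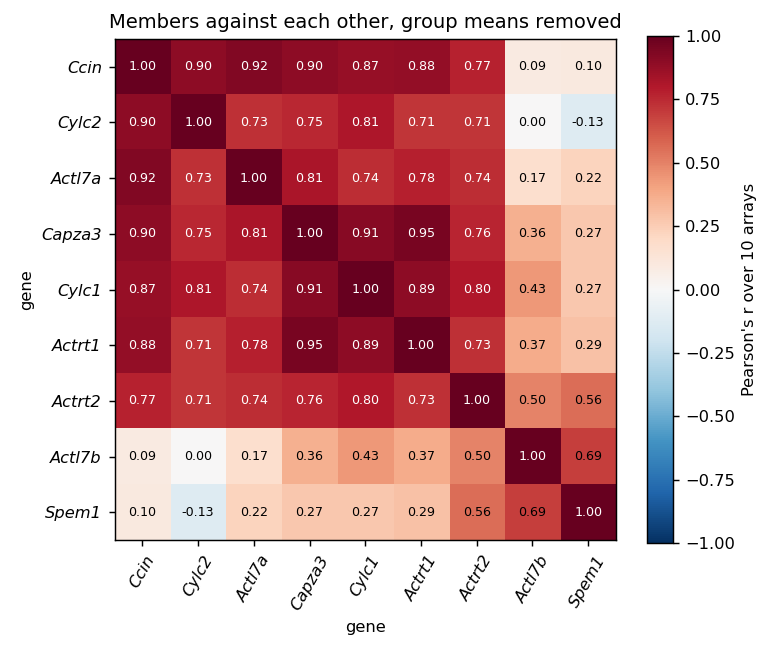
Pearson's r between each pair of the 9 genes over 10 arrays after each group's mean was removed, with the value in each cell and colour from −1 (blue) to 1 (red). The 7 genes at the upper left have r between 0.71 and 0.95, and Actl7b and Spem1 have r of at most 0.56 with any of them.

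The windows around the transcription starts were set beside each other, with those of Actl7b and Spem1, which stood apart from the other 7. Of the 7 genes that varied together, Cylc2 and Capza3 had no window. RefSeq windows of 300 bases (250 before and 50 after the start, build GRCm38.p6) were matched by symbol for 7 of the 9 genes, all but Cylc2 and Capza3. They were searched on both strands for TGACGTCA, the cyclic AMP response element that the CREM and CREB family binds, and for its variant TGATGTCA. They were also searched for GTTGCC, the half-site of the X-box that RFX factors bind, and for ACATTATGA. The last was picked by eye from these windows, so its count in them is not evidence of its own. All 7 windows held at least 1 of these, and the share of all windows that hold at least 1 was not counted. The windows of the 6 genes that held more than GTTGCC alone are shown, leaving out Actrt2, in lower case and 5′ to 3′ along the gene, with those motifs in capitals.
Ccin promoter, chr4:43983254-43983553, plus strand: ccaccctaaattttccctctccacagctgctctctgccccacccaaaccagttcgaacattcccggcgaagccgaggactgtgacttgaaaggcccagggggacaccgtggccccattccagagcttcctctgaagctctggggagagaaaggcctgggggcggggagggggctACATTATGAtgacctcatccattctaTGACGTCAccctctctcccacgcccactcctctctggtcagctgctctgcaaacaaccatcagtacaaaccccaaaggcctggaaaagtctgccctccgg
Cylc1 promoter, chrX:111110168-111110467, plus strand: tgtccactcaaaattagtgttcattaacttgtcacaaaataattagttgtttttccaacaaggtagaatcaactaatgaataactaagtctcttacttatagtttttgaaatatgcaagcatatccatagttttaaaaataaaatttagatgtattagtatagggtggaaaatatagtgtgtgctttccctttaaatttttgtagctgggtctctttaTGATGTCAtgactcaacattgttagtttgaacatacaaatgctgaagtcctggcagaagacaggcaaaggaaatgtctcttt
Actl7a promoter, chr4:56743172-56743471, plus strand: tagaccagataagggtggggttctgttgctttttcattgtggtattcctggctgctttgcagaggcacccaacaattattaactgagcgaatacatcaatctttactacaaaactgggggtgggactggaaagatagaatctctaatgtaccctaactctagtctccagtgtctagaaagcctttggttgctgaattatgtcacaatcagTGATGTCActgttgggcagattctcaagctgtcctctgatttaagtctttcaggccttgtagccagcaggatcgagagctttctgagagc
Actl7b promoter, chr4:56741376-56741675, minus strand: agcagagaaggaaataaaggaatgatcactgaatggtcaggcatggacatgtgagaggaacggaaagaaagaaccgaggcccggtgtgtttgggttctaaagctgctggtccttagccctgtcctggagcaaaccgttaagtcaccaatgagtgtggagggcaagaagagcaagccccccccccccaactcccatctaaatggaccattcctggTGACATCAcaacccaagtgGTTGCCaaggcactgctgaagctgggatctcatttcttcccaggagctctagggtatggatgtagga
Actrt1 promoter, chrX:46328757-46329056, plus strand: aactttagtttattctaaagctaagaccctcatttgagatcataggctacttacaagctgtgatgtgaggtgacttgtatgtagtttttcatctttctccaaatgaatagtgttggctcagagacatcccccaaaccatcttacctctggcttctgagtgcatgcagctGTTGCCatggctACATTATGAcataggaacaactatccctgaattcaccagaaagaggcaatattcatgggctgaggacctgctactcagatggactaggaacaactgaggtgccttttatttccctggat
Spem1 promoter, chr11:69822116-69822415, minus strand: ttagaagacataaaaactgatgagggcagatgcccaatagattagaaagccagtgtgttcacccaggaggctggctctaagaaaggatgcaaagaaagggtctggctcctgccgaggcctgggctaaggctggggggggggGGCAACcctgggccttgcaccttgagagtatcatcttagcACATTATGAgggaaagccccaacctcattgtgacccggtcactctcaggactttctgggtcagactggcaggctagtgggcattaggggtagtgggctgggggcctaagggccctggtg

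TGACGTCA stood in the Ccin window, starting 50 bases before the transcription start, and in 1.79% of 32851 such windows. The variant TGATGTCA, or its reverse complement TGACATCA, stood in the windows of Cylc1, Actl7a and Actl7b, 32, 40 and 36 bases before the start, and in 3.62% of all windows. Actl7a and Actl7b, whose log2 changes had opposite signs, thus carry the same variant at a like distance, in opposite orientations to the gene. ACATTATGA stood in the windows of Ccin, Actrt1 and Spem1, starting 76, 69 and 69 bases before the start, and in 0.244% of all windows. GTTGCC or its reverse complement stood in the windows of Actl7b, Actrt1, Actrt2 and Spem1 and in 12.5% of all windows. TATAAA was found in 0 of the 7 windows and in 13.6% of all. These are matches of letters, with no measurement of binding. The gene of the factor named first, Crem, had a log2 change of 0.07 (adjusted p = 0.408). Rfx2, an RFX factor of spermatids, was 1.72-fold higher in R (adjusted p = 0.00540) and was the gene called among 8 spermatid transcription regulators. The genes with GTTGCC in their windows, Actl7b, Actrt1, Actrt2 and Spem1, had log2 changes of −0.17, −0.18, −0.19 and −0.18, not called by limma. A link between Rfx2 and these genes was not tested.

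Genes that work beside the 9 were read from lists of their roles. The counts for these lists stand beside 15% of all genes called higher and 20.6% lower. Counted from the array median, 863 of 16792 genes were called higher and 6180 lower. Of 20 genes of the theca and of acrosome attachment limma called 1 higher and 2 lower (median 0.01), and 0 higher and 6 lower counted from the array median. Zpbp and Zpbp2, zona pellucida binding proteins of the acrosome, were 1.34-fold and 1.24-fold lower (adjusted p = 0.0113 and 0.00468). Spata16, a Golgi protein of the forming acrosome, was 1.15-fold higher (adjusted p = 0.0305), but lost its change when counted from the array median (−0.01, adjusted p = 0.903). Its call was lost without C replicate 5 or without any R replicate (adjusted p up to 0.0667). Spaca1, an acrosomal membrane protein, had a change of −0.38 (adjusted p = 0.0638) and was called without C replicate 1 and when counted from the array median (−0.59, adjusted p = 0.0166). Actl9, the partner of Actl7a in the theca, had a change of −0.12 (adjusted p = 0.131).

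Among 14 other actin-related proteins 2 were called higher and 3 lower (median −0.04), and 0 higher and 6 lower counted from the array median. Actl9 stands in this list and in the one before. Actr6, a subunit of a nuclear chromatin remodelling complex, fell 2.18-fold (adjusted p = 0.00101). Actl11, a testis actin-like protein, rose 1.30-fold (adjusted p = 0.0162, 0.16 and not called with the array median as reference). Of 12 genes of capping protein, profilin, cofilin and cytoplasmic actin 1 was called higher and 4 lower (median −0.14), and 0 higher and 6 lower counted from the array median. Capza2, the alpha subunit used in somatic cells, fell 1.34-fold (adjusted p = 0.00914), and Capza1 had a change of −0.17 (adjusted p = 0.0902). Actg1, cytoplasmic gamma actin, fell 1.26-fold (adjusted p = 0.00588) and Dstn, an actin-depolymerising factor, 1.45-fold (adjusted p = 0.0175). Pfn4, a spermatid profilin, rose 1.39-fold (adjusted p = 0.0105), though it was not called with the array median as reference (0.26, adjusted p = 0.0506).

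The manchette, the microtubule skirt that shapes the spermatid nucleus, had 6 of 16 listed genes called higher and 0 lower (median 0.15), but 2 higher and 1 lower counted from the array median (median −0.07). Of all genes 15% were called higher, and 863 of 16792 counted from the array median. Hook1, whose loss gives sperm with abnormal heads, rose 1.89-fold, with an adjusted p of 0.00374 (0.70 and adjusted p = 0.00675 with the array median). Cep131, a centrosomal protein of the manchette, rose 1.58-fold (adjusted p = 0.0149, and 0.44 with adjusted p = 0.0224). Kif3a and Spef2, proteins of transport along the manchette, were 1.24-fold and 1.22-fold higher (adjusted p = 0.00679 and 0.00811), and neither was called with the array median as reference (0.09 and 0.07).

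**Figure D5:**
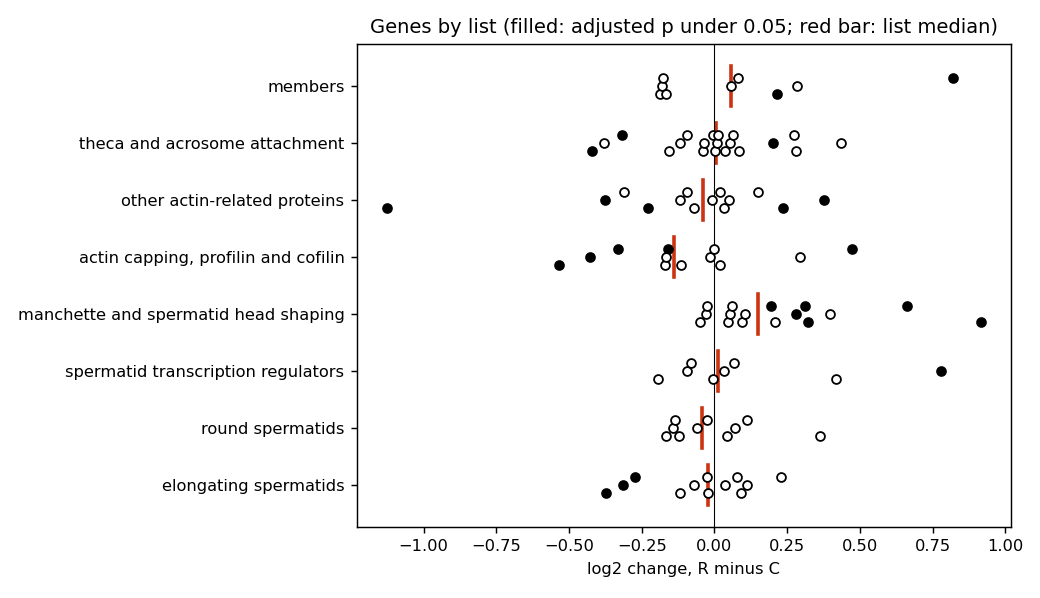
Log2 change R minus C (horizontal axis) of every tested gene of 8 lists, with filled points for an adjusted p under 0.05, open points for the others and a red bar at each list's median. The median of the 9 genes lies at 0.06 with Cylc2 far to the right at 0.82, the manchette list at 0.15 and the capping and profilin list at −0.14.

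In whole testis, fewer cells of a type and less RNA per cell cannot be told apart. The marker counts stand beside 15% of all genes called higher and 20.6% lower (863 and 6180 of 16792 counted from the array median). Markers of round spermatids had 0 of 10 called by limma (1, Catsper4, at an unadjusted p under 0.05), and 2 lower counted from the array median. Their mean log2 signal was between 3.42 and 3.88 on the C arrays and between 3.60 and 3.83 on the R arrays. Of 12 markers of elongating spermatids 3 were called lower and 0 higher (6 and 0 counted from the array median), with a mean log2 signal of 6.53 to 6.74 in C and 6.46 to 6.64 in R. Oaz3, Tssk6 and Odf1 were the members that fell, at 1.30-fold, 1.21-fold and 1.24-fold, and Prm1, which packs sperm DNA, had a change of 0.23 (adjusted p = 0.118). Tssk6 lost its call without R replicate 1 or 4 (adjusted p up to 0.0579), and Odf1 without C replicate 1 or without R replicate 1, 3, 4 or 5 (up to 0.0769). Of 12 Sertoli cell markers 10 were called lower and 1 higher with either reference, with a mean log2 signal of 2.01 to 2.67 in C and 1.77 to 1.98 in R. Of 12 spermatocyte markers 5 were called lower and 0 higher (8 and 0 counted from the array median). The largest falls, of Hormad1, Sycp1 and Sycp3 (log2 change −0.97, −0.63 and −0.66), were in meiotic chromosome genes not confined to late spermatocytes. Of 8 macrophage markers 6 were called lower and 0 higher (8 and 0). All 8 Leydig cell markers had negative changes, with 3 called lower (4) and a median of −0.27, as had all 4 blood markers, with 2 called lower (4) and a median of −0.69. Of 7 endothelial markers 4 were called higher and 0 lower (3 and 0), and of 6 peritubular myoid markers 1 higher and 0 lower (0 and 0). Of 7 adipocyte markers 0 were called by limma with either reference, at a median of 0.68 (2, Car3 and Plin4, at an unadjusted p under 0.05). Cfd, Car3 and Fabp4 had log2 changes of 3.03, 2.42 and 2.11. These 3 were called higher without C replicate 2, the array without which the Cylc2 change fell to 0.56. Without C replicate 1, 1 adipocyte marker was called lower and 0 higher. The adipocyte markers' mean log2 signal ran from −3.69 to −0.85 in C and from −1.96 to −0.34 in R. The part of these cell types in the changes of the 9 genes was not tested. The tissue label was set beside the same lists. Markers of germ cells, Sertoli cells and Leydig cells (8 of 9) were among the genes tested, and 0 of 7 epididymal markers were. A gene goes untested if its probe is dim, has no name or is lost to outlier spots. The absence of these markers therefore does not settle the label.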

How the data were processed

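The scanner files, read with Agilent Feature Extraction (version 12.0.3.1 in the submitters' processing notes), were deposited without scaling between arrays. Their processed spot intensity had local background removed and was detrended per array, per the file headers, which name mm9 for the probes. A table of 2266 probes deposited by the authors holds scaled intensity values, a log2 ratio and, for each probe, a p-value and a q-value. In it 10 columns of per-sample values were not used.

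Control and outlier spots were left out, spots of a probe were averaged on the log2 scale, and each array's 75th percentile over non-control spots was taken off. Probes well above background on at least 5 arrays (33851 of 56605) were tested 2-sided by lmFit and eBayes (R 4.3.3, limma 3.58.1), with Benjamini-Hochberg adjustment over all of them. A gene is its brightest tested probe, named by accession through a RefSeq table of GRCm38.p6 (33767 probes) or the deposited symbol (190). The gene named Garin1b in the lists is Fam71f1 in that table.

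The 9 genes, the lists and the tests were chosen with earlier results of these data known. The text names all 9, at most the 4 lowest p-values per list described, and Actl9, Capzb, Capza1, Capza2, Spaca1, Prm1 and Crem whatever their values. Likeness is Pearson's r after group means were removed. Alternatives covered background correction (normexp, offset 50, on the median spot signal), scaling, filters, variance model, array weights, slide, grouping and each array left out. The procedure was tested on simulated data. The number of arrays limits the precision.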

Additional observations from a re-analysis of the deposited data

How the results depend on the processing

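Over 26 alternatives each, Cylc2, Ccin, Actl7b, Actrt1, Actrt2 and Spem1 kept their sign in 26, Actl7a in 25, Capza3 in 24 and Cylc1 in 21. Cylc2 was called in 17 of them and Actl7a in 13. Actl7a lost its change with the array median as reference (−0.0017, adjusted p = 0.989), a reference that moved the median of all genes to −0.24.

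Of the 9 genes limma called 2 in the main setting. It called 5 with normexp, with the array median, with a trended variance and with array weights. It called 0 with no filter (3 at an unadjusted p under 0.05), with the authors' grouping (0) and without the 2 arrays that this grouping moves (2). Calls fell among all genes too: 5982 of 16792 in the main setting, 3797 of 23506 with no filter, 0 with the authors' grouping and 2686 of 16792 without the 2 arrays. Leaving out each array in turn gave 0 to 3 of the 9, and 4115 to 6432 of all 16792 genes. The study's criterion was met by 1 gene, and by 0 with no filter, with array weights, within slide 2, with the authors' grouping, without the 2 arrays that it moves and without C replicate 2 and R replicate 5 together, and by 0 to 1 as each array was left out. Fewer arrays, or more probes with no filter, enter some of these fits.

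Of 69 tested genes of the role lists 20 were called, where 35.6% of all genes were. It was 13 with no filter, 11 without the 2 arrays, 0 with the authors' grouping (5 at an unadjusted p under 0.05) and 14 to 24 as each array was left out. Of 33851 probes 13059 were called, 6116 without the 2 arrays, 0 within slide 2 (8750 at an unadjusted p under 0.05) and 0 with the authors' grouping (2567), and 9245 to 13550 as each array was left out. Slide 2 holds 1 R array, whose spread is assumed to be that of the C arrays. The shifts between related genes were 0.45 for the cylicins (exact permutation p = 0.190) and 0.14 for Actl7a minus Actl7b (p = 0.421) with the authors' grouping, and 0.57 to 0.87 and 0.33 to 0.41 as each array was left out, and −0.09 to 0.03 for Actrt2 minus Actrt1. The causes were not tested. The 75th percentile over probes, the pair without C replicate 2 and R replicate 5, and the shifts between related genes were chosen after seeing the data.

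No paired analysis was possible because the labels give no replicate numbers that tie C and R animals together.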
